A study of Mus musculus with 8 samples.

Results

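The genes of glycolysis and of the pentose phosphate pathway were followed in mouse blood monocytes of the Ly6Chi and Ly6Clo subsets. Of 35 genes named for these pathways, 32 were represented by 67 probe sets that carried exactly that gene symbol, among 18193 genes named in this way and 45101 probe sets in all. Eno1 (the widely expressed enolase), Gpi1 (glucose phosphate isomerase) and G6pdx (glucose-6-phosphate dehydrogenase, the entry enzyme of the pentose phosphate pathway) had no such probe set, so these steps were not analysed here. The samples were sorted Gr1hi (Ly6Chi) and Gr1lo (Ly6Clo) monocytes of 12-week old C57Bl/6 mice, with 4 samples of each subset. No treatment or allele is named for either group, and each sample came from leukocytes pooled from 5 mice, so the spread is between pools and not between mice. Each sample was hybridised to 1 Affymetrix array. Values are log2 intensities, signed differences are Ly6Clo minus Ly6Chi, and levels of different probe sets are not set against each other because a probe set's brightness depends on its own probes.

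Glycolysis splits glucose into pyruvate, which is either reduced to lactate and exported or carried into mitochondria. The pentose phosphate pathway branches off after the hexokinase step: its oxidative arm makes the NADPH that phagocytes use for the oxidative burst and for glutathione, and its reversible arm shuffles sugars between ribose and the intermediates of glycolysis. Most steps are served by several isoforms encoded by different genes, which differ in tissue distribution and kinetics. Ly6Chi monocytes are known for entering inflamed tissue, and Ly6Clo monocytes for patrolling the vessel wall.

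Arrays have no read depth, and 4 arrays per subset limit the precision. Array medians lay between 80.6 and 83.1 intensity units, and no pair of arrays shared more than 2 identical values. The subset labels were checked against markers: all 5 measured classical markers were higher in Ly6Chi (Vcan, F13a1, Fn1, Chil3 and Ccr2), and 8 of 9 nonclassical markers were higher in Ly6Clo. Ly6c1 and Ly6c2 themselves had no probe set with a single symbol. Of the markers of other blood cells, none of 5 red cell, 10 platelet or 8 T cell genes tested was called by limma, the linear model used throughout, and 1 gene of each list had an unadjusted p under 0.05. Summed platelet intensity ranged from 2492 to 5577 in Ly6Chi and from 2858 to 7038 in Ly6Clo. Summed red cell intensity ranged from 1644 to 4535 in Ly6Chi and from 1696 to 6295 in Ly6Clo. Neutrophil markers were higher in Ly6Chi for 5 of 10 tested, with summed intensity from 3522 to 4128 against 1631 to 1993, and B cell markers for 4 of 7, from 1132 to 1729 against 833 to 1210. Of the 12 neutrophil markers with a probe set, Cxcr2 alone lay below the median of the table on all 8 arrays. NK cell markers were higher in Ly6Clo for 2 of 5, from 965 to 1072 in Ly6Chi against 1242 to 1501. Of the dendritic cell markers 1 of 6 was higher in Ly6Clo and 2 were higher in Ly6Chi, and 9 of 10 eosinophil and basophil markers lay below the table median on every array. The part of these markers in the results below was not tested.

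Ly6Clo monocytes had far more RNA for the muscle-type enolase Eno3 and more for Ldha, Slc16a3, Slc2a1, Pfkl, Pfkp, Aldoc, Tpi1, Pdk1 and Tkt. Ly6Chi monocytes had more for all 3 hexokinases, for the heart-type lactate dehydrogenase Ldhb, for Pfkm, Pkm and Pdk3, and for Pgls, Pgd and Taldo1 of the pentose phosphate pathway. In sorted populations, a larger share of cells expressing a gene and more RNA per cell cannot be told apart. Of the 28 member genes that passed the filter on dim signal, 20 were called (71.4%), 10 of them brighter in Ly6Clo and 10 brighter in Ly6Chi, at a Benjamini-Hochberg adjusted p under 0.05 over all 22831 probe sets tested with limma. Each gene was read from its tested probe set with the highest mean over all arrays. Over all 11546 genes tested, 32.5% were called, 14.1% toward Ly6Clo and 18.5% toward Ly6Chi. Counted by probe set, 33 of the members' 55 tested ones were called, 16 toward Ly6Clo and 17 toward Ly6Chi, against 31.1% of all probe sets, 15.2% toward Ly6Clo and 15.9% toward Ly6Chi. The subsets did not overlap for 18 of the 28 members, against 33.9% of all genes. The median difference was -0.02 for the members and -0.01 for all genes, and the median size of a difference was 0.32 against 0.13. The filter asked for a value over the table median (6.36) in at least 4 of 8 arrays, and 27 of the 28 members lay over it in all 8. All genes tested were not matched to the members in brightness, and members were chosen with earlier results of these data known. The reason for the larger share of called members was not tested.

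**Figure D1:**
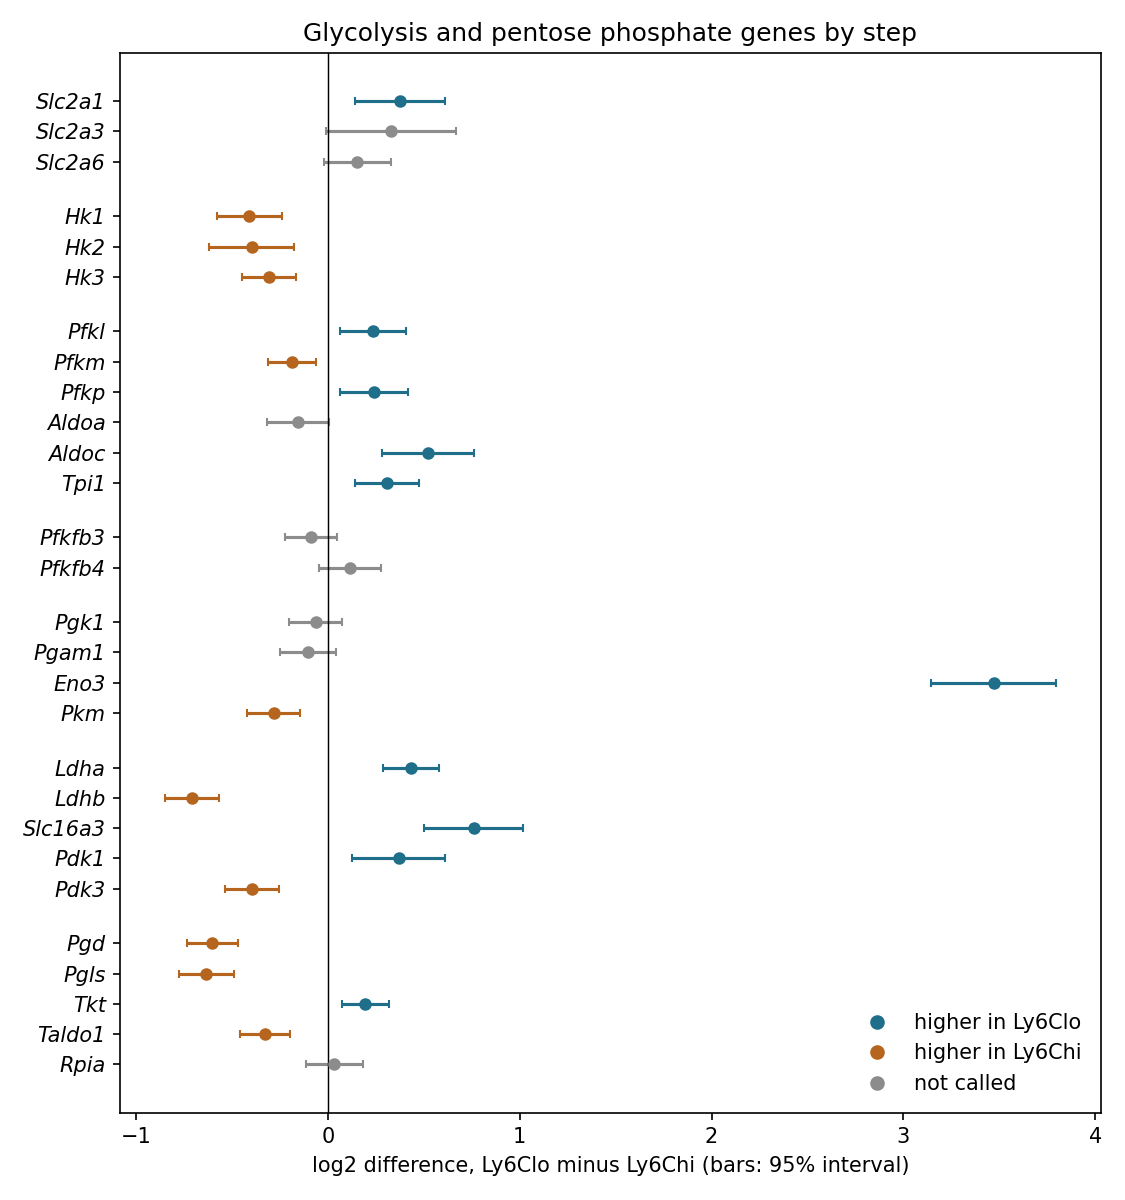
Log2 difference, Ly6Clo minus Ly6Chi, of the 28 tested members in order of pathway step, with bars for the unadjusted 95% interval of the limma fit (4 arrays per subset) and colour for the call. Each gene is shown by its brightest tested probe set. Eno3 stands at 3.47, and every other member lies between -0.71 and 0.76 on that probe set.

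Of the 28 tested members, 5 (17.9%) were called with a difference of at least 1.5-fold, namely Eno3, Ldhb, Slc16a3, Pgd and Pgls, against 9.89% of all genes tested. On these brightest probe sets Eno3 alone reached 2-fold (3.57%), against 3.88% of all genes tested. The other Ldhb probe sets were called at 2.11-fold, 2.97-fold and at least 3.38-fold toward Ly6Chi, so this count depended on the probe set chosen. The last of these passed the filter on dim signal only through its Ly6Chi arrays. The same call was made for 14 of the 20 without each array in turn. Leaving out 1 array changed the count of members higher in Ly6Clo to between 6 and 9, the lowest without Ly6Clo replicate 4, and the count higher in Ly6Chi to 9 or 10.

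Glucose enters monocytes through facilitative carriers of the Slc2a family. Slc2a1 (GLUT1), the carrier of most proliferating and activated cells, read 8.84, 9.02, 8.59 and 8.59 in the 4 Ly6Chi arrays and 9.11, 9.29, 8.94 and 9.19 in the 4 Ly6Clo arrays. The highest Ly6Chi array lay above the lowest Ly6Clo array. The mean was 8.76 ± 0.21 in Ly6Chi and 9.13 ± 0.15 in Ly6Clo (SD, n = 4 each), 1.30-fold higher in Ly6Clo (SE 0.11 log2, limma adjusted p = 0.019). Both other Slc2a1 probe sets differed in the same direction without being called, and the call was lost without Ly6Chi replicate 3 or 4 or without Ly6Clo replicate 2 or 4 (difference 0.32 to 0.46 over the 8 arrays left out, adjusted p up to 0.060).

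Slc2a3 (GLUT3), a high-affinity carrier also known from platelets and neurons, read 8.22, 7.66, 7.59 and 7.55 in the 4 Ly6Chi arrays and 8.37, 8.05, 7.77 and 8.14 in the 4 Ly6Clo arrays. Ly6Chi replicate 1 lay with the Ly6Clo arrays and the subsets overlapped. The difference was 0.33 (95% interval -0.01 to 0.67) and did not pass the threshold (adjusted p = 0.14). Without Ly6Chi replicate 1 it was 0.48 and was called (adjusted p = 0.012). In each subset the array numbered 1 also had the highest summed platelet intensity, 5577 in Ly6Chi and 7038 in Ly6Clo. Summed red cell intensity was highest in the same arrays, at 4535 and 6295. So were the sums of neutrophil, B cell, NK cell and dendritic cell markers. The parts of platelet, red cell and other RNA in the Slc2a3 values were not tested and cannot be told apart here. Slc2a6 (GLUT6), a carrier of intracellular membranes, read 9.17, 8.97, 9.19 and 9.0 in the 4 Ly6Chi arrays and 9.27, 9.07, 9.31 and 9.29 in the 4 Ly6Clo arrays. These values overlapped and the difference of 0.15 was not called (adjusted p = 0.18). The other carriers of sugars and monocarboxylates, a list of 19 genes of which 9 were tested, held 1 called gene, the amino acid and thyroid hormone carrier Slc16a10, 1.30-fold higher in Ly6Chi (adjusted p = 0.0059). Bsg, the chaperone of lactate carriers, was among the 8 not called.

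Hexokinases phosphorylate glucose and so trap it in the cell. All 3 measured isoforms were higher in Ly6Chi. Hk1, the housekeeping form that binds mitochondria, read 9.57, 9.30, 9.36 and 9.30 in the 4 Ly6Chi arrays and 8.98, 9.07, 8.98 and 8.86 in the 4 Ly6Clo arrays. All Ly6Chi arrays lay above all Ly6Clo arrays. The difference was -0.41 (SE 0.08, adjusted p = 0.0017), a 1.33-fold excess in Ly6Chi. A second Hk1 probe set differed by -0.24 and was not called (adjusted p = 0.059).

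Hk2, the inducible mitochondrial form, read 10.04, 9.91, 9.59 and 9.81 in the 4 Ly6Chi arrays and 9.50, 9.60, 9.29 and 9.37 in the 4 Ly6Clo arrays. The lowest Ly6Chi array lay just under the highest Ly6Clo array, so the subsets overlapped there. Its difference was -0.40 (SE 0.10, adjusted p = 0.010). Hk3, the form found mainly in myeloid cells, read 9.57, 9.65, 9.57 and 9.57 in the 4 Ly6Chi arrays and 9.28, 9.23, 9.41 and 9.22 in the 4 Ly6Clo arrays. The subsets did not overlap, and the difference was -0.31 (SE 0.06, adjusted p = 0.0034), with the second Hk3 probe set at -0.30 (adjusted p = 0.0068). Compared array by array, the subset difference of Hk1 was 0.10 further from 0 than that of Hk3 (exact permutation p = 0.34, adjusted p = 0.56 over 13 isoform pairs), and the difference between Hk2 and Hk3 was 0.09 (p = 0.51, adjusted p = 0.67). With 4 arrays per subset, at least 8 of the 13 pairs would have had to reach the smallest possible p for any to pass after adjustment, so these p-values do not show that the isoforms differed by the same amount.

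**Figure D2:**
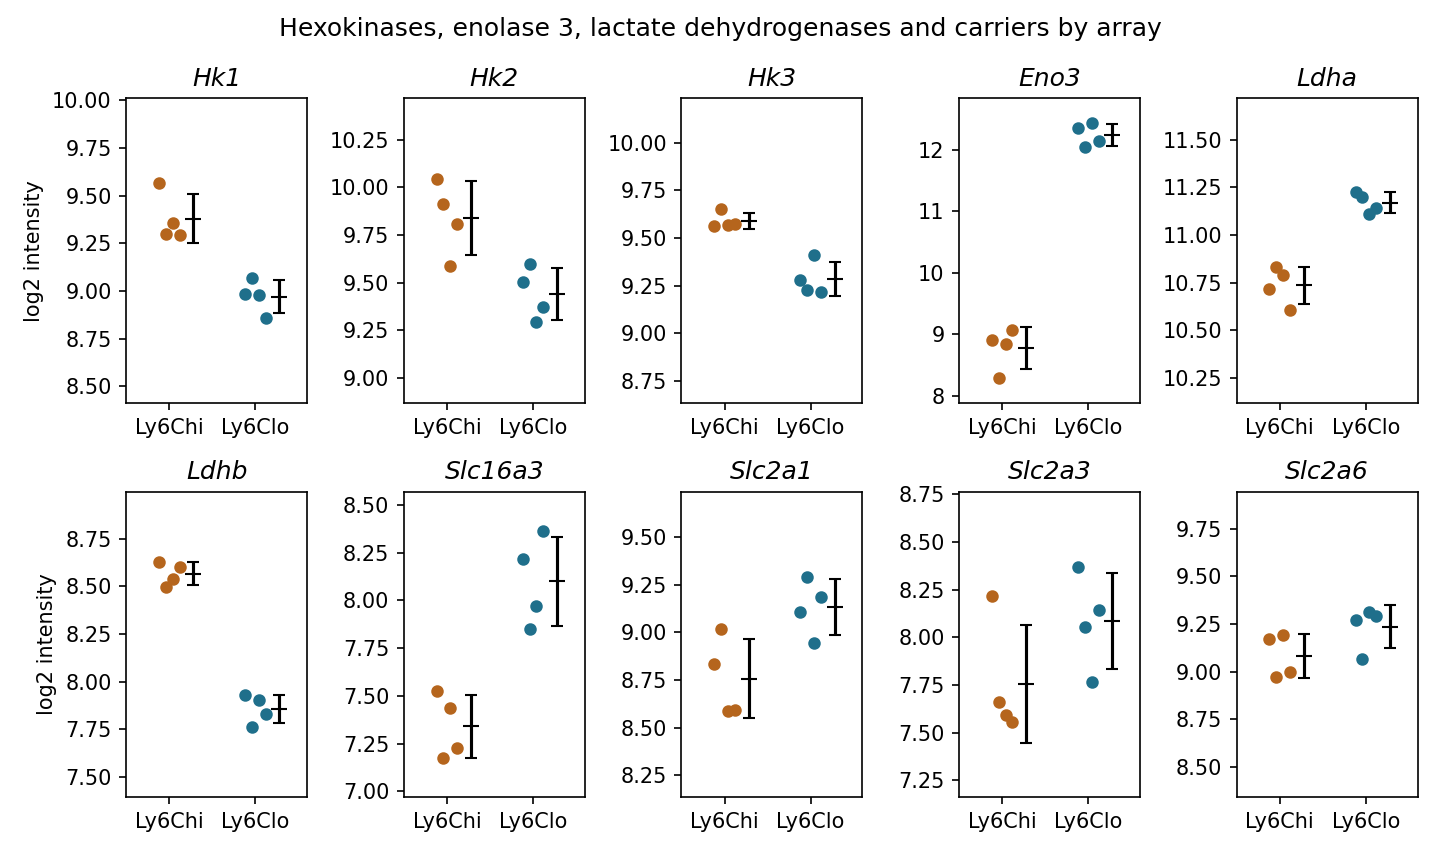
Log2 intensity of each array (points) for hexokinases, Eno3, lactate dehydrogenases, the lactate exporter Slc16a3 and glucose carriers, with the mean and SD of 4 arrays beside them; each panel has its own scale. The subsets do not overlap for Hk1, Hk3, Eno3, Ldha, Ldhb and Slc16a3, and they do for Hk2 and the 3 glucose carriers.

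Of 6 tested genes of the upper steps after hexokinase, 4 were called toward Ly6Clo and 1 toward Ly6Chi, against 14.1% and 18.5% of all genes tested. Phosphofructokinase, the committed step, has liver, platelet and muscle isoforms. The liver form Pfkl averaged 8.43 ± 0.13 in Ly6Chi and 8.67 ± 0.08 in Ly6Clo, and the platelet form Pfkp 9.49 ± 0.14 and 9.73 ± 0.10 (log2, SD, n = 4 each). Both were called 1.18-fold higher in Ly6Clo (adjusted p = 0.038 and 0.042). The muscle form Pfkm stood at 7.65 ± 0.03 and 7.46 ± 0.05 and was 1.14-fold higher in Ly6Chi (adjusted p = 0.027). In all 3 the subsets did not overlap. Other probe sets gave larger differences for Pfkl, at 0.44 (1.36-fold, adjusted p = 0.0012), and for Pfkp, at 0.46 (1.37-fold, adjusted p = 0.0070), both called, while the remaining Pfkl probe set, at 0.12, was not (adjusted p = 0.15). The calls on the brightest probe sets were close to the threshold. That of Pfkl was lost without Ly6Chi replicate 1 or 4 or Ly6Clo replicate 1, 2 or 4 (adjusted p up to 0.11, difference 0.17 to 0.27). That of Pfkp was lost without any 1 of 6 arrays, the exceptions being the replicates numbered 3 (adjusted p up to 0.11, difference 0.17 to 0.28). That of Pfkm was lost without Ly6Chi replicate 2 or 3 or Ly6Clo replicate 1 or 4 (adjusted p up to 0.082, difference -0.20 to -0.17). The difference of Pfkm was 0.43 below that of Pfkp and 0.42 below that of Pfkl, each at an exact permutation p of 0.0286 (adjusted p = 0.074). This is the smallest p that 70 orders of 8 arrays allow.

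Aldolase cleaves the doubly phosphorylated hexose. Aldoc, the brain-type form, averaged 6.29 ± 0.22 in Ly6Chi, under the table median, and 6.81 ± 0.15 in Ly6Clo, and was at least 1.37-fold higher in Ly6Clo (difference 0.52, SE 0.11, adjusted p = 0.0034). Aldoc was the single tested member not over the median in all arrays. Its other probe set lay below the median on every array and was not tested (means 4.65 in Ly6Chi and 4.76 in Ly6Clo). Aldoa, the bright common form, averaged 11.64 ± 0.10 and 11.48 ± 0.09, and none of its 5 probe sets was called in limma (adjusted p = 0.082 to 0.21). Those of Aldoa ran from -0.22 to -0.15, below 0 in each case. The triose phosphate isomerase Tpi1 was 1.24-fold higher in Ly6Clo (9.83 ± 0.10 against 10.14 ± 0.11, adjusted p = 0.0091), and 2 of its 3 probe sets were called.

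The bifunctional enzymes Pfkfb3 and Pfkfb4, which set the level of the main activator of phosphofructokinase, were not called. Pfkfb3 averaged 8.27 ± 0.06 in Ly6Chi and 8.18 ± 0.06 in Ly6Clo (95% interval of the difference -0.22 to 0.05, adjusted p = 0.34). Pfkfb4 averaged 9.96 ± 0.09 and 10.07 ± 0.10 (interval -0.05 to 0.28, adjusted p = 0.29). Fbp1, the opposing bisphosphatase of gluconeogenesis, was too dim to be tested, with means of 6.23 and 6.19.

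In the lower part of glycolysis Eno3 stood apart from its neighbours. Eno3, the enolase known from skeletal muscle, read 8.90, 8.29, 8.83 and 9.06 in the 4 Ly6Chi arrays and 12.35, 12.05, 12.43 and 12.14 in the 4 Ly6Clo arrays. The lowest Ly6Clo array was nearly 3 log2 units above the highest Ly6Chi array. The mean rose from 8.77 ± 0.34 to 12.24 ± 0.18, 11.1-fold (difference 3.47, 95% interval 3.14 to 3.80, SE 0.15, adjusted p = 2.0e-08). Eno3 had only 1 probe set, so no second one was available for comparison. By size of difference Eno3 ranked 15 among all 11546 genes tested. Without each array in turn the difference stayed between 3.31 and 3.57. Eno2, the neuronal form, lay below the table median on every array (means 4.94 and 4.88) and was not tested. Because Eno1 was not analysed here, the share of Eno3 in total enolase RNA is not known.

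The enzymes on either side of enolase differed little or in the opposite direction. Pgk1, phosphoglycerate kinase, averaged 12.45 ± 0.04 in Ly6Chi and 12.39 ± 0.08 in Ly6Clo, and none of its 3 probe sets was called in limma (adjusted p = 0.46 to 0.53). Pgam1, phosphoglycerate mutase, averaged 10.66 ± 0.10 and 10.55 ± 0.05 (adjusted p = 0.28). Pkm, pyruvate kinase, whose splice forms the single probe set did not separate here, was 1.22-fold higher in Ly6Chi (11.63 ± 0.07 against 11.34 ± 0.06, adjusted p = 0.0044). Gapdh, often used as a reference gene, had only the 3 array control probe sets under its own symbol. These were left out of the main test. All 3 were brighter in Ly6Clo without overlap, by 0.14 at the 3′ end, 0.16 in the middle and 0.21 at the 5′ end. When they were kept in the fit, only the 5′ control probe set was called (adjusted p = 0.032, against 0.065 and 0.099). In the main limma fit, a probe set shared by Gapdh and several other symbols was called higher in Ly6Clo (13.22 against 13.42, adjusted p = 0.039). Those shared only by Gapdh and Gapdh-ps15 were not called (adjusted p = 0.47 and 0.66). The ratio of 3′ to 5′ control signal, which rises as RNA is degraded, overlapped between the subsets for Gapdh (log2 0.19 ± 0.13 in Ly6Chi and 0.12 ± 0.03 in Ly6Clo, exact permutation p = 0.40) and for Actb (0.38 ± 0.05 and 0.31 ± 0.04, p = 0.17).

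Lactate dehydrogenase interconverts pyruvate and lactate, and its isoforms moved in opposite directions. Ldha, the muscle-type subunit that favours lactate formation, read 10.72, 10.83, 10.79 and 10.61 in the 4 Ly6Chi arrays and 11.23, 11.20, 11.11 and 11.14 in the 4 Ly6Clo arrays. Its lowest Ly6Clo array lay above its highest Ly6Chi array, and it was 1.35-fold higher in Ly6Clo (difference 0.43, SE 0.07, adjusted p = 0.00042). Ldhb, the heart-type subunit, read 8.63, 8.50, 8.54 and 8.60 in the 4 Ly6Chi arrays and 7.93, 7.76, 7.90 and 7.83 in the 4 Ly6Clo arrays on its brightest probe set. These groups were separated by more than 0.5, and Ldhb was 1.64-fold higher in Ly6Chi (difference -0.71, SE 0.06, adjusted p = 6.0e-06).

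The size of the Ldhb difference depended on the probe set. All 4 Ldhb probe sets were called higher in Ly6Chi, with differences of -0.71, -1.08, -1.57 and -2.46. For the last, all 4 Ly6Clo arrays lay under the table median (mean 5.65 against 8.11), so the fold was at least 3.38. That probe set passed the filter only through its Ly6Chi arrays. The 4 Pgd probe sets, by comparison, spanned only -0.65 to -0.56. Of 14 members with several tested probe sets, no gene had probe sets called in opposite directions, and 5 had called and not called ones side by side. Array by array, the Ldha difference exceeded that of Ldhb by 1.14 on the brightest probe sets (exact permutation p = 0.0286, adjusted p = 0.074). Of the 13 isoform pairs compared, 5 reached this smallest p and none passed after adjustment. The other 4 pairs of the 17 listed had a member that was not measured or too dim.

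**Figure D3:**
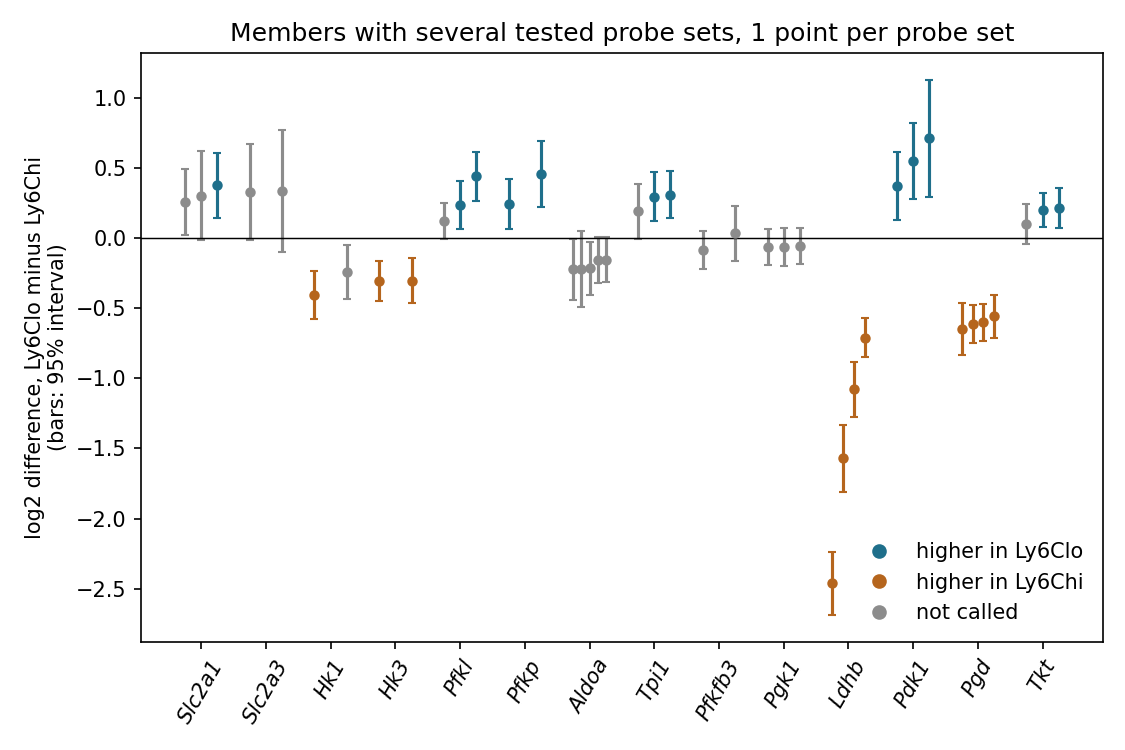
Log2 difference, Ly6Clo minus Ly6Chi, for every tested probe set of the 14 members with more than 1, with bars for the 95% interval and colour for the call. The 4 Ldhb points spread from -2.46 to -0.71, whereas the 4 Pgd points lie between -0.65 and -0.56.

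Lactate leaves the cell through monocarboxylate carriers. Slc16a3 (MCT4), the low-affinity exporter of glycolytic cells, read 7.53, 7.17, 7.43 and 7.23 in the 4 Ly6Chi arrays and 8.22, 7.85, 7.97 and 8.37 in the 4 Ly6Clo arrays. The subsets did not overlap, and Slc16a3 was 1.69-fold higher in Ly6Clo (7.34 ± 0.17 against 8.10 ± 0.23, SE 0.12, adjusted p = 0.00041). Slc16a1 (MCT1), the carrier for both import and export, lay below the table median on every array with both of its probe sets, so that only 1 of these carriers was measurable.

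Pyruvate dehydrogenase kinases hold back the entry of pyruvate into the citric acid cycle, and their measured isoforms also moved in opposite directions. Pdk1, a hypoxia-responsive isoform, was 1.29-fold higher in Ly6Clo (8.04 ± 0.25 against 8.41 ± 0.09, adjusted p = 0.024), and its 3 tested probe sets differed by 0.37 to 0.71, all called (the fourth was too dim). The call on the brightest one was lost without Ly6Chi replicate 2 or 3 or Ly6Clo replicate 3 or 4 (adjusted p up to 0.072, difference 0.29 to 0.46). Pdk3 was 1.31-fold higher in Ly6Chi (8.96 ± 0.01 against 8.57 ± 0.09, adjusted p = 0.00053). The Pdk1 difference exceeded that of Pdk3 by 0.76 (exact permutation p = 0.0286, adjusted p = 0.074). Among 9 other tested genes of pyruvate entry into mitochondria, Mpc1, a subunit of the mitochondrial pyruvate carrier, was 2.72-fold higher in Ly6Chi (10.45 against 9.01, SE 0.09, adjusted p = 2.5e-07). Pdha1, the catalytic subunit of pyruvate dehydrogenase, was 1.51-fold higher in Ly6Clo (adjusted p = 3.9e-05), and the other 7 were not called.

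The promoters of the lactate genes and of Eno3 are shown because the lactate dehydrogenases differed in opposite directions, Slc16a3 exports lactate, and Eno3 had the largest difference of the tested members. Each is the 250 bases before a RefSeq transcription start (GRCm38.p6), read 5′ to 3′ on the gene's strand. Capitals mark ACGTG on either strand, a form of the core recognised by hypoxia-inducible factors. ACGTG is also part of the E box CACGTG. The other form of the core, GCGTG, was not marked or counted. The windows are chr7:46845554-46845803 (plus strand) for the first of 2 Ldha starts, chr11:120948817-120949066 (plus) for Slc16a3, chr6:142507958-142508207 (minus) for Ldhb and chr11:70656926-70657175 (plus) for Eno3.
Ldha: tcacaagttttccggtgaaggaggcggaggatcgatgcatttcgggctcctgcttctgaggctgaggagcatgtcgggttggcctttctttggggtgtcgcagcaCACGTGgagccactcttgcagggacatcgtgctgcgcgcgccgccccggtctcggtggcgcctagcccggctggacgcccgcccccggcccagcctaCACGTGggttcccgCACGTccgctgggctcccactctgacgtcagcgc
Slc16a3: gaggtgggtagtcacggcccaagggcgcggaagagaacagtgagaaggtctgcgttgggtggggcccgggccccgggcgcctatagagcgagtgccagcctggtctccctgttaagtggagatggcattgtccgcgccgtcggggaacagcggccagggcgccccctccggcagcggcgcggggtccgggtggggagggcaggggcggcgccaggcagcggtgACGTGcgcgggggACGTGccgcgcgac
Ldhb: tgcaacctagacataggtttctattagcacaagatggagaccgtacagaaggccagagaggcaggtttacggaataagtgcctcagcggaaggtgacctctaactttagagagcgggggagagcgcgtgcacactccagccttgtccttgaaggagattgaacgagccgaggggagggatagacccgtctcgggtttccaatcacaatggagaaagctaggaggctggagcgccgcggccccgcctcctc
Eno3: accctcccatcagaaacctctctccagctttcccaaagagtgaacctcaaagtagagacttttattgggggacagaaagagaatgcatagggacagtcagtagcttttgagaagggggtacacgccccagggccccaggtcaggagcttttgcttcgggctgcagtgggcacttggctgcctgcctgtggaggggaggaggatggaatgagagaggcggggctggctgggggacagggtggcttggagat
The Ldha window held 5 matches of ACGTG counted on both strands, among them 2 copies of the palindrome CACGTG, each of which counts on both. The Slc16a3 window held 2, and those of Ldhb, of Eno3 and of the other Ldha start held no ACGTG. The uncounted form GCGTG does occur in the Ldhb window. Its reverse complement CACGC occurs in the Eno3 window and in that of the other Ldha start. Of all 32851 promoter windows of this length, 16.6% held ACGTG and 6.02% held CACGTG. Promoters were listed for 34 of the 35 members with 48 starts, of which 33.3% held ACGTG and 8.33% CACGTG. A GC box, GGGCGG, was found in 58.3% of the members' starts and in 32.7% of all. A match describes these letters only.

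In the pentose phosphate pathway the measured genes of the oxidative arm were higher in Ly6Chi, while those of the reversible arm were divided. Pgls, the lactonase of the oxidative arm, read 10.14, 10.00, 10.08 and 9.99 in the 4 Ly6Chi arrays and 9.49, 9.37, 9.33 and 9.47 in the 4 Ly6Clo arrays. Pgd, the dehydrogenase that follows it and yields NADPH, read 12.10, 12.11, 12.21 and 12.10 in the 4 Ly6Chi arrays and 11.49, 11.60, 11.47 and 11.56 in the 4 Ly6Clo arrays. In both, every Ly6Chi array lay at least 0.4 above every Ly6Clo array. Pgls was 1.55-fold higher in Ly6Chi (difference -0.63, SE 0.07, adjusted p = 1.8e-05) and Pgd 1.52-fold (difference -0.60, SE 0.06, adjusted p = 1.6e-05). All 4 Pgd probe sets were called.

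Taldo1, transaldolase of the reversible arm, was 1.26-fold higher in Ly6Chi (12.37 ± 0.02 against 12.04 ± 0.07, adjusted p = 0.0013). Tkt, transketolase, was 1.15-fold higher in Ly6Clo (12.53 ± 0.03 against 12.73 ± 0.03, adjusted p = 0.018), with 2 of its 3 probe sets called. The call on its brightest probe set was lost without Ly6Chi replicate 2 or Ly6Clo replicate 3 (adjusted p up to 0.054, difference 0.18 to 0.21). Rpia, the ribose phosphate isomerase, differed by 0.03 (interval -0.11 to 0.18, adjusted p = 0.77).

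**Figure D4:**
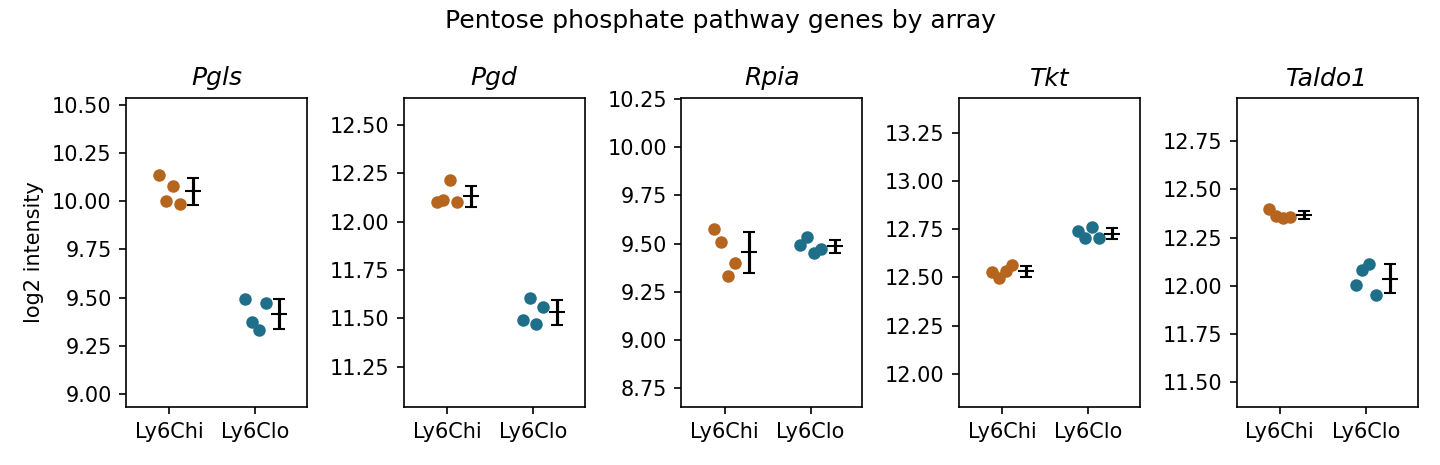
Log2 intensity of each array (points) for 5 pentose phosphate genes, with the mean and SD of 4 arrays per subset; each panel has its own scale. Pgls, Pgd and Taldo1 are higher in all Ly6Chi arrays, Tkt is higher in all Ly6Clo arrays, and Rpia overlaps.

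Of 8 other tested genes of pentose and ribose metabolism, 4 were called toward Ly6Chi and 2 toward Ly6Clo. Over all genes tested, the shares were 18.5% toward Ly6Chi and 14.1% toward Ly6Clo. Ribokinase, Rbks, was 2.26-fold higher in Ly6Chi (8.64 against 7.46, SE 0.08, adjusted p = 1.0e-06). H6pd, which runs the first oxidative steps inside the endoplasmic reticulum, was 1.43-fold higher in Ly6Chi (adjusted p = 0.00021). Toward Ly6Clo stood the ribose-phosphate pyrophosphokinases Prps1l3, at 1.39-fold (adjusted p = 0.0022), and Prps2, at 1.26-fold (adjusted p = 0.0021). Prps1l3 closely resembles Prps1, so its probe set may not be specific.

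Around the core of glycolysis, 19 further genes were tested, of which 4 were called toward Ly6Clo and 5 toward Ly6Chi. Over all genes tested, the shares were 14.1% toward Ly6Clo and 18.5% toward Ly6Chi. The mitochondrial glycerol phosphate dehydrogenase Gpd2, part of a shuttle that reoxidises cytosolic NADH, was 1.92-fold higher in Ly6Clo (7.90 against 8.84, adjusted p = 8.2e-05), followed by the liver-type pyruvate kinase Pklr at 1.19-fold (adjusted p = 0.017). In the opposite direction stood the phosphoglucomutase relatives Pgm2l1, at 1.85-fold (adjusted p = 0.00040), and Pgm1, at 1.33-fold (adjusted p = 0.00035). Glycogen genes were called higher in Ly6Chi for 4 of 11 tested, against 18.5% of all genes tested. None of them was called toward Ly6Clo by limma, against 14.1% of all genes tested. An unadjusted limma p under 0.05 was reached by 6 of the 11, in either direction. The phosphatase-targeting subunit Ppp1r3d was 1.45-fold higher in Ly6Chi (adjusted p = 0.0035) and the glycogen primer glycogenin, Gyg, 1.39-fold (adjusted p = 0.0023). The median difference of the tested glycogen genes was -0.01, as for all genes.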

How the data were processed

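Per the submitters' processing notes, GCRMA and MAS5 were used, with no version, role or order given. The deposited values are probe set intensities on a linear scale (8.64 to 27145), with nearly equal array medians; which method the authors used to scale them is not given in the sources used here. Per the labels' protocols, in vitro transcription was extended from 4 to 64 hours, which can alter measured ratios. The log2 of each value was used, without a pseudocount. The 64 array controls were left out. Probe sets over the median of the rest (intensity 81.9) in at least 4 of 8 arrays were tested (22831 of 45037). Linear models without a block were fitted in limma (version 3.58.1; R 4.3.3) and moderated with eBayes. The two-sided p-values were adjusted by Benjamini-Hochberg across these probe sets, with a threshold of 0.05. The labels do not say which sorts shared mice, so p-values measure only the spread between these samples. Where the dimmer subset's mean lay under that median, the fold was taken against it as a lower bound for the means, which leaves out the spread between arrays. Symbols came from the platform annotation, where 34945 probe sets had 1 symbol, 932 several and 9160 none. Isoform pairs were compared by exact permutation (two-sided, all 70 orders).

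Every member is named; values of every array are given for members called at 1.5-fold or more and for hexokinases, enolases, lactate dehydrogenases and carriers. In other lists up to 2 called genes per direction are named, by largest fold. Members and lists were chosen with earlier results of these data known. Tested on simulated data of 22831 probe sets, the workflow recovered 14% of differences of 0.25 log2, 80% of 0.5 and 96% of 1. It made 7 false calls among 152. Only 50 probe sets were changed at each size, whereas 31.1% of all probe sets were called in the data. The recovered shares therefore need not hold for the data. Same-numbered samples did not deviate together in all 4 pairs, so numbers were not taken as pairs. Alternatives were 20 planned settings and 2 added after the data were seen.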

Additional observations from a re-analysis of the deposited data

Results flagged for a closer look

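In 56 groups of 4 arrays (28 members in each subset), 5 had 1 array set apart from the others by more than Dixon's 95% critical share of the range; chance marks about 1 group in 20. All 5 were Ly6Chi arrays at the high end. Slc2a3 read 8.22 in Ly6Chi replicate 1 against 7.55 to 7.66 in the others. Hk3 read 9.65 in replicate 2 against 9.57 at both ends of the others' range. Pkm and Pgd stood high in replicate 3, at 11.73 against 11.59 to 11.60 and at 12.21 against 12.10 to 12.11. Taldo1 read 12.40 in replicate 1 against 12.35 to 12.36. Apart from Slc2a3, these gaps were under 0.15 log2, and the calls of these 4 genes were kept without each array in turn.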

How the results depend on the processing

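Over 22 alternative settings, 13 of the 20 called members had the same call in every setting that gave them a value. Of these, 5 were higher in Ly6Clo (Aldoc, Eno3, Ldha, Slc16a3, Tpi1) and 8 higher in Ly6Chi. Aldoc had a value in only 20 settings, and Hk1, Ldha, Ldhb, Pgd, Taldo1 and Tpi1 in 21. All tested probe sets of Aldoc and of these other genes had IDs that mark matches to several transcripts. Counts of called members changed most with probe sets whose IDs mark matches to several transcripts left out (5 toward Ly6Clo and 6 toward Ly6Chi, of 18 genes left) and at a threshold of 0.01 (5 higher in Ly6Clo). Leaving out 1 array gave 6 to 9 higher in Ly6Clo. With both samples numbered 1 left out, chosen after seeing the data, 8 and 9 were called. A replicate block gave 10 toward Ly6Clo and 9 toward Ly6Chi, and 7164 of all probe sets against 7108; it called Slc2a3 (adjusted p = 0.015) and lost Pfkl (0.066) and Pfkm (0.055). Same-numbered samples correlated at -0.10 to 0.34 in their deviations, and 3 of 8 samples correlated best with their own number. The highest correlation of any pair was 0.55, between Ly6Chi replicate 4 and Ly6Clo replicate 3. Ly6Chi replicate 3 and Ly6Clo replicate 4 correlated at 0.30. Whether samples with different numbers shared mice was not tested, and the block followed the numbers only. No block was run for isoform pairs. Rpia, not called, changed sign without Ly6Chi replicate 3 (-0.0073 to 0.073 over the arrays left out). Leaving out 1 array changed the sign of 3 uncalled isoform comparisons, Hk1 against Hk2 (-0.064 to 0.065), Pfkl against Pfkp (-0.082 to 0.063) and Slc2a1 against Slc2a3 (-0.080 to 0.164). The causes were not tested. The table median stood in for background, since no detection calls were used here.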

Other observations

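Of 20 tested regulators of glycolytic genes, 5 were called toward Ly6Clo and 4 toward Ly6Chi, against 14.1% and 18.5% of all genes tested. Arrdc4 and Txnip, arrestin-like genes known to respond to glucose through the factor MondoA, were both higher in Ly6Chi, Arrdc4 by 2.36-fold (8.25 ± 0.09 against 7.01 ± 0.13, SD, n = 4 each, limma adjusted p = 3.6e-07) and Txnip by 1.29-fold (adjusted p = 0.0014). Nfe2l2, the factor NRF2 that drives antioxidant and pentose phosphate genes, was 1.64-fold higher in Ly6Clo (10.93 ± 0.05 against 11.65 ± 0.08, adjusted p = 5.3e-06). Egln3, an oxygen-sensing hydroxylase, was 1.33-fold higher in Ly6Clo (adjusted p = 0.0050). Hif1a itself differed by -0.28 and was not called (adjusted p = 0.077).

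Hypoxia-responsive genes outside glycolysis were divided, with 4 of 11 called toward Ly6Clo and 3 toward Ly6Chi, against 14.1% and 18.5% of all genes tested. Ddit4, an inhibitor of mTORC1 signalling, was 4.78-fold higher in Ly6Clo (8.46 ± 0.21 against 10.72 ± 0.44, adjusted p = 3.0e-06), and the collagen prolyl hydroxylase subunit P4ha1 was 1.71-fold higher there (adjusted p = 1.4e-05). Ndrg1 was 4.78-fold higher in Ly6Chi (10.34 ± 0.16 against 8.09 ± 0.27, adjusted p = 1.6e-07), and the mitophagy receptor Bnip3 2.10-fold (adjusted p = 2.2e-06).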
